A study of Homo sapiens and Mus musculus with 24 samples.

Results

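The genes described are 40 imprinted genes, a list of names from textbook knowledge of genomic imprinting, chosen with earlier results of these data known. They were followed through human intestinal cells that lost the DNA methyltransferase DNMT3A and mouse colon epithelium that lost Dnmt3a. All 40 were found among the 58051 gene identifiers of the human count tables, and 28 of the 40 among the 29307 genes of the mouse tables. In the human list, 23 genes are listed as expressed from the paternal allele and 10 from the maternal allele. For the other 7 the allele depends on transcript or tissue or is unsettled (GRB10, DDC, COPG2, BLCAP, GNAS, NDUFA4 and TP73). The mouse genes comprised 13, 9 and 6 of these classes. Gene counts do not separate the parental alleles, so every level given is the sum of both. Whether each gene is imprinted in these cells was therefore not tested, and the classes are those of the list.

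An imprinted gene is transcribed from the copy inherited from 1 parent, because a control region in its cluster is methylated on the copy from a single parent. These germline marks are laid down in egg or sperm by DNMT3A with its cofactor DNMT3L, and are then copied at each division by DNMT1 and protected by zinc finger proteins that recruit TRIM28. Within a cluster, genes of opposite parental origin often lie side by side, as do the growth factor gene IGF2 and the noncoding RNA H19, and many products act on growth: paternally expressed genes are often described as promoting it, maternally expressed genes as restraining it.

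RNA sequencing of total RNA was available for 15 libraries of Caco-2, a human colorectal adenocarcinoma line that forms an intestinal epithelium in culture, and for 8 libraries of mouse colonic epithelial cells. The Caco-2 groups were unmodified WT (4 libraries), ΔDNMT3A (4 libraries), a clonal line made with CRISPR-Cas9, and 2 lines made from ΔDNMT3A cells by piggyBac insertion of a TY1-tagged DNMT3A isoform, DNMT3A1 (3 libraries) and DNMT3A2 (4 libraries). The isoform lines were selected with puromycin and clonally expanded, so that each edited line may be 1 clone, and a difference between lines cannot be told apart from a difference between clones. The mice were 12 weeks old and without further treatment. The floxed line was on a C57BL/6J background, and the Villin-Cre mice crossed to it were on a C57BL/6JxSJL/J background. For baseline work the paper reports mice of both sexes. Dnmt3a fl/fl controls (4 libraries) carried loxP sites around exons 13 to 17 of Dnmt3a, and Dnmt3a ΔIEC animals (4 libraries) carried the same alleles with Villin-Cre, which is active in intestinal epithelium, and EpCAM+ cells were isolated. Total gene counts ran from 22104408 to 42161299 per human library and from 16943626 to 24921248 per mouse library. Nothing in the sources states that replicates were separate cultures, so p-values for the lines measure only the spread between these samples, which may be technical. The 7 epithelial markers were all present in WT, ΔDNMT3A and DNMT3A1 cells at 1 CPM (gene counts scaled to the size of their library) or more, and 6 of the 7 in the line labelled DNMT3A2. Their levels differed between the lines: 5 of 7 were higher and 1 lower in ΔDNMT3A against WT, 1 higher and 5 lower in DNMT3A1 against ΔDNMT3A, and 7 of 7 lower in the line labelled DNMT3A2 against ΔDNMT3A. KRT20, a keratin of differentiated cells, averaged 16.1 CPM over the ΔDNMT3A libraries, next to 1.03 CPM for WT, 1.82 CPM for DNMT3A1 and 0.744 CPM for the line labelled DNMT3A2. The part of these differences in the results for imprinted genes was not tested.

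The level of the targeted gene was checked against the labels. DNMT3A averaged 64.6 ± 2.27 CPM over the 4 WT libraries and 20.7 ± 1.22 CPM over the 4 ΔDNMT3A libraries (mean ± SD), and the log2 fold change between them was -1.65 (SE 0.043, adjusted p = 4.3e-20, Benjamini-Hochberg over every gene of the fit, from the quasi-likelihood F test of edgeR that is used throughout). It was higher in DNMT3A1 cells, at 38.02 ± 1.23 CPM (n = 3), by 0.87 on the log2 scale over ΔDNMT3A. The libraries labelled DNMT3A2 held 21.9 ± 1.40 CPM (n = 4), a difference from ΔDNMT3A of 0.07 (SE 0.057, adjusted p = 0.272), so that their counts carry no measured gain of DNMT3A RNA. The paper reports, from immunoblots, loss of DNMT3A protein in ΔDNMT3A cells and its re-expression in both isoform lines. It also reports nuclear staining of both re-expressed isoforms. Protein was not analysed here. In mice, Dnmt3a was 93.9 ± 7.70 CPM in fl/fl and 46.1 ± 3.30 CPM in ΔIEC samples (log2 fold change -1.03, SE 0.091, adjusted p = 0.000763). These counts cover the whole gene, so RNA without the floxed exons 13 to 17 can still add to them. The level in ΔIEC samples therefore does not give the amount of intact Dnmt3a RNA.

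The 3 paternally expressed genes whose RNA fell most in the line labelled DNMT3A2, L3MBTL1, ZDBF2 and MCTS2, are shown by the 250 bases before their RefSeq start on GRCh38.p14, beside MKRN3, a paternally expressed gene that moved the other way in that line. Capitals mark each CpG, the dinucleotide that DNMT3A can methylate. All windows are on the plus strand, at chr20:43507447-43507696 for L3MBTL1, chr2:206274413-206274662 for ZDBF2, chr20:31547129-31547378 for MCTS2 and chr15:23565424-23565673 for MKRN3.
L3MBTL1: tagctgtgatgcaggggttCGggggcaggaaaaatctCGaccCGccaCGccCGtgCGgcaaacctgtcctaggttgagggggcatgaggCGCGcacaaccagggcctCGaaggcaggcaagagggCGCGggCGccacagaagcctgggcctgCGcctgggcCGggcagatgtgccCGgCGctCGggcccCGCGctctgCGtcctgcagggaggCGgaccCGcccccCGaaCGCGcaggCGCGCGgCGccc
ZDBF2: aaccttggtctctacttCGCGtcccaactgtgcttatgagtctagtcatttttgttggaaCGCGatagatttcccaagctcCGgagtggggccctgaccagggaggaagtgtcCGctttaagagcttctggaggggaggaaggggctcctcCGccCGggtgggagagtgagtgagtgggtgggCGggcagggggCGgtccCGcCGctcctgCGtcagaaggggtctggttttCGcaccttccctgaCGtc
MCTS2: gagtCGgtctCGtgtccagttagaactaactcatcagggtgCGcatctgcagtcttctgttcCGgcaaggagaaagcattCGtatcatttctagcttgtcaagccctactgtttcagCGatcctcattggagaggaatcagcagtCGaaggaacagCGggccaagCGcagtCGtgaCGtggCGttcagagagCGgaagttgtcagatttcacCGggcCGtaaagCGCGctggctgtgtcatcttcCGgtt
MKRN3: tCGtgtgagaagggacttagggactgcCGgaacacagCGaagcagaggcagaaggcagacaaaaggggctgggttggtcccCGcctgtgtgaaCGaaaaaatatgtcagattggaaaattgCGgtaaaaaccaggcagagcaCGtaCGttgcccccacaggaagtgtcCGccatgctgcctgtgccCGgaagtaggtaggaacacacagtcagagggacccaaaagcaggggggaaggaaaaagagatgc
The windows held 29, 15, 18 and 10 CpG in that order, against a median of 11 over the 35116 RefSeq windows of the same length and 18 over the 27 of 40 members that had one. As many CpG as in L3MBTL1 stood in 14.1% of all windows, and as many as in MKRN3 in 52.2%. The letters TGCCGC, the core motif of the imprint-protecting protein ZFP57, searched on both strands, occurred once in the L3MBTL1 window and not in the other 3, and stood in 12.7% of all windows and 8 of the 27 members' windows.

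In at least 1 Caco-2 group, 24 of the 40 genes reached a mean of 1 CPM: 10 of 23 paternally expressed, 7 of 10 maternally expressed and 7 of the 7 others. In WT cells and scaled by exon length, PEG10, a gag-like gene derived from a retrotransposon, was the highest at 95.5 CPM per kb, ahead of NDUFA4 at 68.9, GNAS at 64.5, MEST at 59.1 and IGF2 at 47.9 CPM per kb. ZDBF2, PHLDA2 and KCNQ1OT1 lay low in that order, at 1.61, 1.58 and 1.46 CPM per kb, and L3MBTL1 at 0.326 CPM per kb. In every library, 13 genes had 3 counts or fewer (11 paternally and 2 maternally expressed), the floor used here. They were the paternally expressed DIO3, DIRAS3, DLK1, HYMAI, INS, MAGEL2, NDN, NNAT, PEG3, RTL1 and ZIM2 and the maternally expressed MEG3 and MEG8. Of these, 8 had 0 counts in every library (DIO3, HYMAI, INS, MAGEL2, NDN, PEG3, RTL1 and ZIM2). H19, SNURF and PLAGL1 were above the floor in some libraries and below 1 CPM in every group.

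Loss of DNMT3A was addressed by ΔDNMT3A against WT. CDKN1C and PHLDA2, growth-restraining genes of the maternal allele, rose, and IGF2, ZDBF2, PEG10 and SGCE of the paternal allele fell. In the other direction, NAA60 of the maternal allele fell (-0.41) and MCTS2 of the paternal allele rose (0.41). UBE3A, IGF2R, KCNQ1OT1, SNRPN and SNURF were not called. Further imprinted genes, counted below, had medians of -0.01 (paternally expressed) and 0.02 (maternally expressed). Of the 25 members that passed the filter on low counts, 7 were higher and 12 lower at an adjusted p under 0.05, a threshold that 62.2% of all genes tested passed (31.2% higher and 31.0% lower). Among the paternally expressed, 1 of 11 was higher and 7 lower, with a median log2 fold change of -0.44, and among the maternally expressed 4 of 7 were higher and 1 lower, with a median of 0.18. Of the 7 others, 2 were higher and 4 lower (median -0.30), and the median over all 16654 genes tested was 0.00. The 4 higher maternally expressed members lie in 1 cluster on chromosome 11, where the nearest tested genes (up to 50) had medians of 0.14 to 0.15. Such medians were -0.45, -0.45 and -0.34 for PEG10, SGCE and MEST on chromosome 7. For the other lower paternally expressed members, IGF2, ZDBF2, MKRN3 and L3MBTL1, they were 0.12, -0.05, 0.01 and -0.16. Members that share a region are not independent. PHLDA2 was the only member called with a log2 fold change of at least 1, a size that 8.51% of all genes tested reached. The groups did not overlap for 18 of the 25 members, as for 55.4% of all genes tested. In bulk RNA, fewer cells of a type and less RNA per cell cannot be told apart.

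The lines made to carry an isoform were each set against ΔDNMT3A. Those comparisons share the ΔDNMT3A libraries with each other and with the one before, so their values stand side by side and no overlap between them is given. In DNMT3A1 cells, 10 of the 24 members tested were higher and 7 lower, where 60.7% of all genes tested were called (30.4% higher and 30.3% lower), and 16 of the 24 had groups without overlap (59.8% of all genes). By class these were 6 higher and 1 lower of 10 paternally expressed (median 0.23), 3 higher and 2 lower of 7 maternally expressed (median 0.03), and 1 higher and 4 lower of the 7 others (median -0.08). CDKN1C and PHLDA2 were the 2 members called with a log2 change of at least 1, where 8.32% of all genes tested were.

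In the line labelled DNMT3A2, 9 of the 26 members tested were higher and 14 lower than in ΔDNMT3A, where 67.9% of all genes tested were called (33.8% higher and 34.1% lower), and 23 of the 26 had groups without overlap (61.4% of all genes). The paternally expressed genes split into 5 higher and 6 lower of 11 tested (median -0.49), with IGF2 and SNURF up and L3MBTL1, ZDBF2 and MCTS2 down by at least 1 on the log2 scale. Those 5 were the members of any class called at that size, which 11.9% of all genes tested reached. Of 8 maternally expressed genes, 1 was higher and 4 lower (median -0.12), and of the 7 others 3 were higher and 4 lower (median -0.36).

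The isoform lines were also set against each other and against WT. All 26 members tested differed between the isoform lines, 12 higher and 14 lower in the line labelled DNMT3A2 (33.9% and 34.5% of all genes tested, together 68.5%), 8 of them by at least 1 on the log2 scale (13.1% of all genes), and 25 of the 26 had groups without overlap (66.6% of all genes). Against WT, 7 of 25 members were higher and 13 lower in DNMT3A1 cells (32.6% and 32.7% of all genes, together 65.3%), with 18 without overlap (63.4%). In the line labelled DNMT3A2, 7 of 25 were higher and 15 lower than in WT (34.3% and 34.4% of all genes, together 68.7%), with 7 past a log2 change of 1 (11.1% of all genes) and 21 without overlap (62.2%). Those 7 were PEG10 at -1.29, SGCE at -1.33 and TP73 at -1.18, with L3MBTL1 at -4.60, ZDBF2 at -2.93, MCTS2 at -1.54 and SNURF at 1.02.

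**Figure D1:**
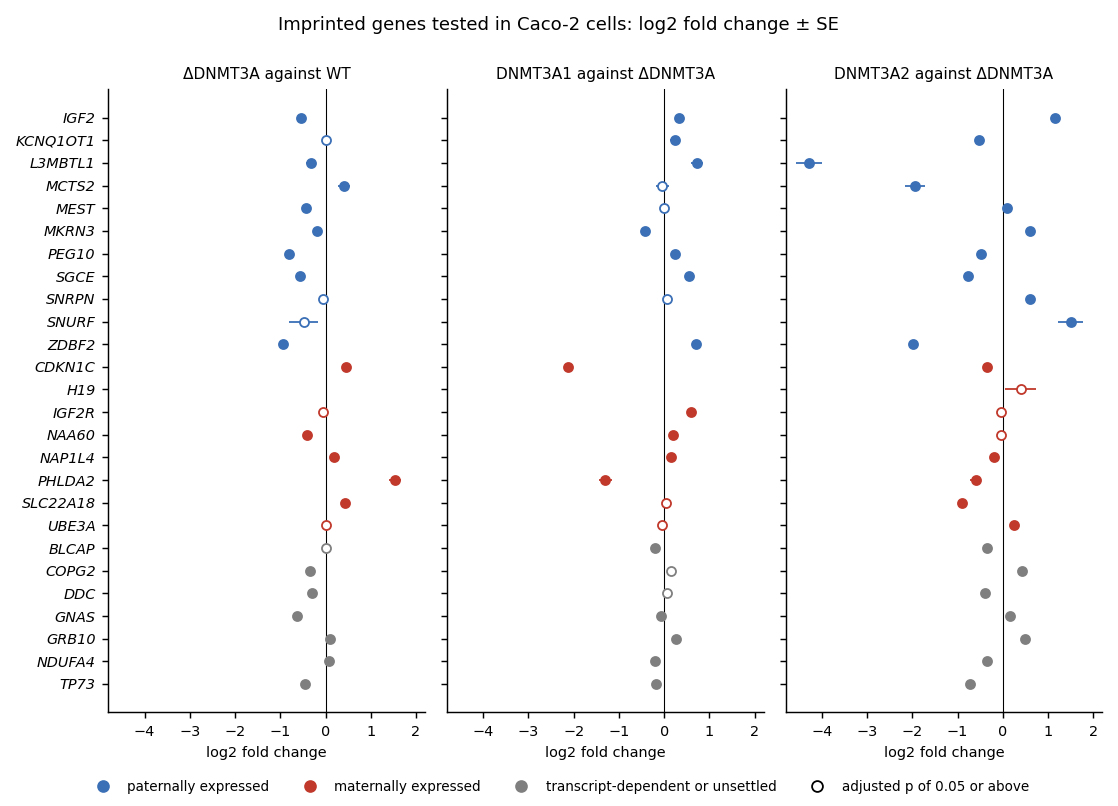
Log2 fold changes of the tested imprinted genes in Caco-2 cells, with bars of 1 SE and open points where the adjusted p is 0.05 or above, in ΔDNMT3A against WT and in each isoform line against ΔDNMT3A, grouped by expressed allele. L3MBTL1, ZDBF2 and MCTS2 lie at -4.28, -1.98 and -1.94 in the line labelled DNMT3A2, and CDKN1C at -2.13 in DNMT3A1 cells.

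CDKN1C (chr11:2883213-2885881, minus strand, GRCh38) encodes the cyclin-dependent kinase inhibitor p57. Among the maternally expressed members, CDKN1C had the largest fitted change in the comparisons with ΔDNMT3A, where H19 was near the floor or not tested. Some further maternally expressed genes, which are not members, changed more. OSBPL5 differed by 2.76 in DNMT3A1 and 2.49 in the line labelled DNMT3A2 against ΔDNMT3A, and CPA4 by 2.23 in ΔDNMT3A against WT. WT libraries held 23.9, 22.3, 26.3 and 26.4 CPM, and ΔDNMT3A libraries 35.4, 32.7, 35.2 and 34.4 CPM. DNMT3A1 libraries held 8.02, 7.09 and 8.28 CPM, and those labelled DNMT3A2 26.6, 26.5, 28.7 and 25.7 CPM. The ΔDNMT3A libraries were thus the highest and the DNMT3A1 libraries the lowest, with no overlap of either with another group. The log2 fold change was 0.46 (SE 0.051, adjusted p = 2.68e-08) in ΔDNMT3A against WT and -2.13 (SE 0.061, adjusted p = 2.47e-16) in DNMT3A1 against ΔDNMT3A. DNMT3A1 cells were also below WT, by -1.66 (SE 0.074, adjusted p = 2.73e-16). The line labelled DNMT3A2 was lower than ΔDNMT3A by -0.36 (SE 0.046, adjusted p = 2.30e-07), and its difference from WT of 0.10 (SE 0.053) was not called (adjusted p = 0.094).

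PHLDA2 (chr11:2928273-2929455, minus strand), a maternally expressed gene that limits placental growth, stood at lower levels. WT libraries held 1.11, 1.49, 1.72 and 1.72 CPM and ΔDNMT3A libraries 4.76, 5.06, 4.06 and 3.72 CPM. DNMT3A1 libraries held 2.04, 1.42 and 1.89 CPM, and those labelled DNMT3A2 2.69, 2.63, 3.26 and 3.08 CPM. All ΔDNMT3A libraries lay above all others, and the DNMT3A1 range overlapped that of WT. PHLDA2 rose by 1.54 (SE 0.137, adjusted p = 7.25e-10) in ΔDNMT3A over WT, and was lower than in ΔDNMT3A by -1.30 (SE 0.151, adjusted p = 3.17e-07) in DNMT3A1 and by -0.60 (SE 0.117, adjusted p = 9.13e-05) in the line labelled DNMT3A2. DNMT3A1 against WT gave 0.24 (SE 0.188, adjusted p = 0.263), and the line labelled DNMT3A2 was above WT by 0.94 (SE 0.149, adjusted p = 2.24e-06). The headers of the deposited counts place replicates 1 and 2 on sequencing lane 5 and replicates 3 and 4 on lane 6. The rise over WT was 1.92 within lane 5 and 1.16 within lane 6. The corresponding differences were -1.49 and -1.04 for DNMT3A1, and -0.88 and -0.30 for the line labelled DNMT3A2. For CDKN1C the lanes gave 0.55 and 0.39, -2.17 and -2.07, and -0.36 and -0.36 for the same comparisons, with a single DNMT3A1 library on lane 6.

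The genes around them in the KCNQ1OT1 cluster took other values. KCNQ1OT1, the paternally expressed noncoding RNA whose transcription silences the cluster on that allele, was 133 ± 4.83 CPM in WT and 134 ± 14.6 CPM in ΔDNMT3A, a difference of 0.00 (SE 0.051, adjusted p = 0.971). It was 159 ± 32.7 CPM in DNMT3A1 cells, called higher than ΔDNMT3A by 0.23 (adjusted p = 0.032) with overlapping groups, a call that was lost without DNMT3A1 replicate 2 (log2 fold change 0.06). In the line labelled DNMT3A2 it fell to 93.4 ± 4.98 CPM (-0.53, SE 0.055, adjusted p = 7.49e-09). SLC22A18, a maternally expressed transporter gene, rose from 27.7 ± 1.62 to 37.7 ± 1.80 CPM in ΔDNMT3A (0.44), and was lower in the line labelled DNMT3A2 at 20.1 ± 1.23 CPM (-0.91 against ΔDNMT3A), while DNMT3A1 cells at 38.5 ± 2.07 CPM differed by 0.03 (SE 0.051, adjusted p = 0.683). NAP1L4, a histone chaperone gene, differed by 0.18, 0.14 and -0.19 in the 3 comparisons, each called. Within 1000 kb of the CDKN1C start, the other genes tested had medians of 0.12 (19 genes), 0.34 (22 genes) and -0.20 (19 genes). Of the 22, 2 were lower in DNMT3A1 cells, as CDKN1C and PHLDA2 were: SLC22A18AS (-0.66), 17.9 kb from the CDKN1C start, and RPL26P30 (-0.52). These other genes are not all outside imprinting. In DNMT3A1 the imprinted OSBPL5, KCNQ1, ASCL2 and TSSC4 were higher (2.76, 1.68, 0.32 and 0.25), and TSPAN32, CD81 and IGF2-AS were not called. TSPAN32 differed by -1.98 in ΔDNMT3A against WT.

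**Figure D2:**
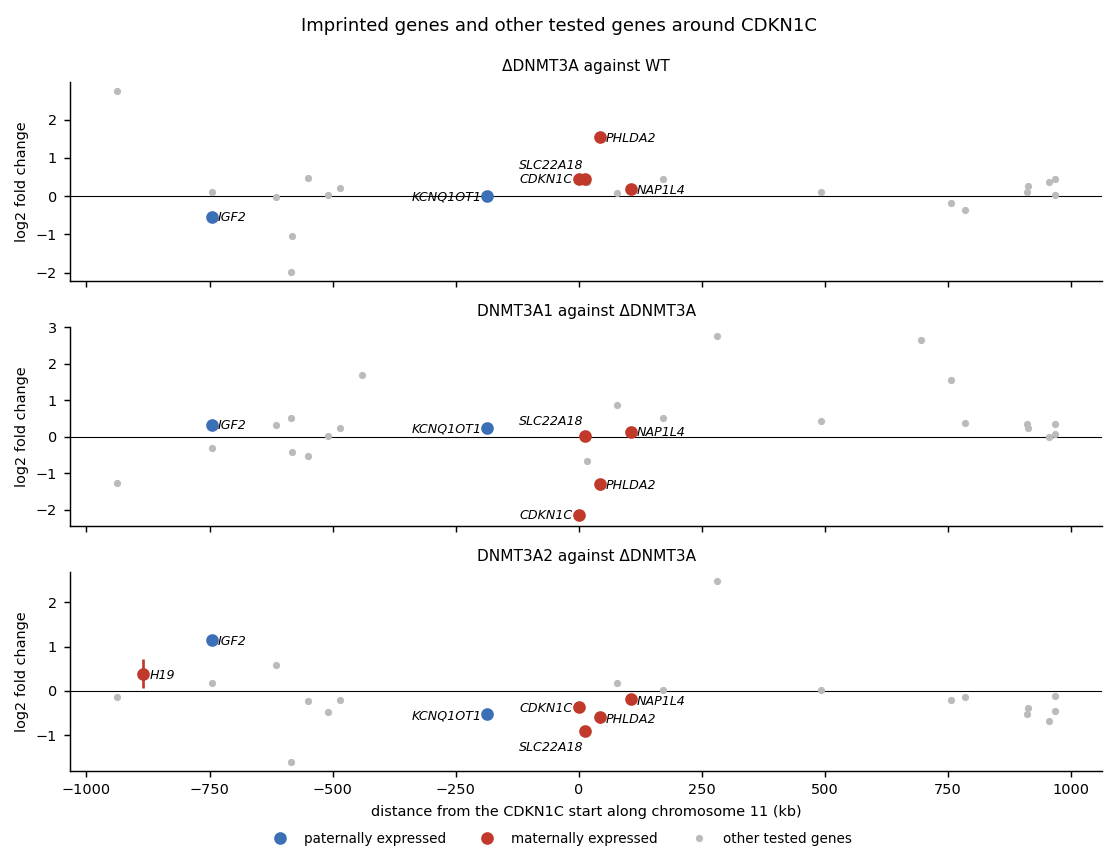
Log2 fold changes of the genes tested on chromosome 11 by distance from the start of CDKN1C in kb. The comparisons are ΔDNMT3A against WT and each isoform line against ΔDNMT3A. Only the imprinted genes that are members are marked. The unmarked genes include other imprinted genes, such as ASCL2 and CD81. In DNMT3A1 cells CDKN1C at -2.13 and PHLDA2 at -1.30 lie below the median of 0.34 of the other genes in the window.

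IGF2 (chr11:2129112-2141238, minus strand), which encodes a fetal growth factor, is paternally expressed and lies further along the same arm. WT libraries held 277.5, 310.0, 309.5 and 301.6 CPM and ΔDNMT3A libraries 195.0, 224.6, 212.2 and 199.2 CPM. DNMT3A1 libraries held 269.4, 271.5 and 238.9 CPM, and those labelled DNMT3A2 505.8, 486.9, 438.4 and 433.2 CPM. No 2 groups overlapped, with ΔDNMT3A lowest and the line labelled DNMT3A2 highest. IGF2 fell by 0.54 on the log2 scale in ΔDNMT3A (SE 0.039, adjusted p = 1.46e-11), and was above ΔDNMT3A by 0.32 in DNMT3A1 (SE 0.047, adjusted p = 5.19e-06) and by 1.16 in the line labelled DNMT3A2 (SE 0.044, adjusted p = 9.28e-17). Within the lanes the values were -0.50 and -0.59, 0.37 and 0.22, and 1.24 and 1.08. The line labelled DNMT3A2 also exceeded WT, by 0.62. The median of the 50 nearest tested genes on the chromosome was 0.12, 0.36 and -0.37 in the same comparisons. IGF2 shares 21.9% of its exon bases with other annotated genes, the read-through INS-IGF2 among them, and reads in such bases were not assigned to any gene.

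H19, the maternally expressed noncoding RNA beside IGF2, was close to the floor. WT libraries held 1, 1, 1 and 2 counts, ΔDNMT3A libraries 8, 11, 11 and 15, DNMT3A1 libraries 5, 6 and 8, and those labelled DNMT3A2 11, 10, 8 and 18 counts. Every edited library therefore held more H19 reads than every WT library. Per read sequenced, ΔDNMT3A had 8.39 times the WT count (45 against 5 counts, 95% interval 3.34 to 27.1 for counting error only), and the line labelled DNMT3A2 11.04 times (47 against 5 counts, 4.41 to 35.6). H19 passed the filter in the comparisons of the line labelled DNMT3A2 with ΔDNMT3A (0.39, SE 0.334, adjusted p = 0.309) and with DNMT3A1 (1.08, SE 0.389, adjusted p = 0.0166). IGF2R (chromosome 6), whose receptor takes up and clears IGF2, was 204 ± 9.37 CPM in WT, 199 ± 8.90 in ΔDNMT3A and 194 ± 7.57 in the line labelled DNMT3A2, and rose to 299 ± 25.1 CPM in DNMT3A1 cells (0.59 over ΔDNMT3A, SE 0.045, adjusted p = 7.15e-10).

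L3MBTL1 (chr20:43507680-43550950, plus strand), a paternally expressed gene for a protein that binds methylated histone lysines, all but disappeared in the line labelled DNMT3A2. WT libraries held 3.71, 3.26, 3.22 and 3.73 CPM and ΔDNMT3A libraries 3.06, 2.58, 2.60 and 3.02 CPM. DNMT3A1 libraries held 4.60, 5.55 and 4.00 CPM, and those labelled DNMT3A2 0.079, 0.369, 0.0354 and 0.130 CPM. The groups formed 4 ranges without overlap, with DNMT3A1 highest. The line labelled DNMT3A2 held 15 counts in all against 383 in ΔDNMT3A, which is 20.3 times fewer per read sequenced (95% interval 12.1 to 36.6, counting error only), and the fitted log2 fold change was -4.28 (SE 0.286, adjusted p = 4.20e-12). Without replicate 2 of that line, the library with the most reads of the gene, the fitted change was -5.03. L3MBTL1 was lower in ΔDNMT3A than in WT by -0.32 (SE 0.107, adjusted p = 0.0127) and higher in DNMT3A1 than in ΔDNMT3A by 0.72 (SE 0.129, adjusted p = 6.68e-05). Within lanes the change in the line labelled DNMT3A2 was -3.71 and -4.99, and that in DNMT3A1 0.83 and 0.51. The median of the 50 nearest tested genes was -0.18 in the line labelled DNMT3A2.

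ZDBF2 (chr2:206274663-206314428, plus strand), a zinc finger gene expressed from the paternal allele, followed the same order of groups except that WT was highest. WT libraries held 17.5, 17.1, 16.1 and 16.0 CPM and ΔDNMT3A libraries 8.41, 8.89, 8.42 and 9.07 CPM. DNMT3A1 libraries held 14.4, 14.7 and 13.6 CPM, and those labelled DNMT3A2 2.13, 2.63, 2.16 and 1.98 CPM. The 4 groups did not overlap. ZDBF2 fell by 0.95 in ΔDNMT3A (SE 0.062, adjusted p = 2.70e-12), was higher than ΔDNMT3A by 0.71 in DNMT3A1 (SE 0.065, adjusted p = 9.58e-09), and was lower by -1.98 in the line labelled DNMT3A2 (SE 0.096, adjusted p = 9.54e-15). Lane values were -1.01 and -0.89, 0.75 and 0.65, and -1.87 and -2.09, and the medians of the 50 nearest tested genes were -0.05, 0.24 and 0.09.

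MCTS2 (chr20:31547504-31548049, plus strand), a retrogene that lies within HM13 and is listed in older annotations as MCTS2P, is the fifth of the genes past a log2 change of 1 in that line. WT libraries held 1.85, 1.52, 1.595 and 1.47 CPM, and ΔDNMT3A libraries 2.22, 2.25, 1.89 and 2.19 CPM. DNMT3A1 libraries held 2.30, 2.22 and 1.80 CPM, and those labelled DNMT3A2 0.474, 0.831, 0.283 and 0.681 CPM. The last 4 lay below all others, while DNMT3A1 overlapped both WT and ΔDNMT3A. The log2 fold change in the line labelled DNMT3A2 was -1.94 (SE 0.215, adjusted p = 2.92e-08), and -1.80 and -2.06 within the lanes. DNMT3A1 against ΔDNMT3A gave -0.04 (SE 0.152, adjusted p = 0.851). The difference between ΔDNMT3A and WT of 0.41 (SE 0.137, adjusted p = 0.0128) was not called by DESeq2 (adjusted p = 0.0777). MCTS2 shares 34.6% of its exon bases with HM13, and is a near copy of MCTS1, so its level is uncertain. HM13 itself differed by -0.18 between the line labelled DNMT3A2 and ΔDNMT3A.

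**Figure D3:**
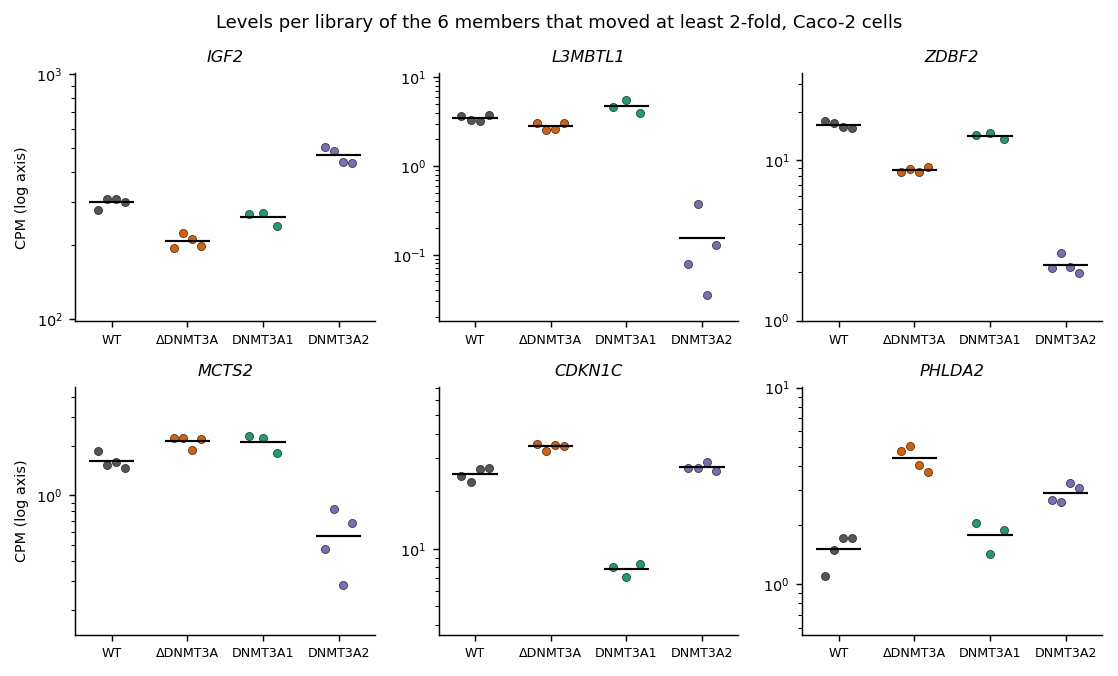
CPM of 6 imprinted genes in each Caco-2 library (points) by group, with a line at the group mean, on a log axis of each gene's own range. IGF2 is highest (433.2 to 505.8 CPM) and L3MBTL1 lowest (0.0354 to 0.369 CPM) in the libraries labelled DNMT3A2, and CDKN1C is lowest in DNMT3A1 (7.09 to 8.28 CPM).

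The 2 paternally expressed genes of the chromosome 7q21 cluster moved together. WT cells held 638.5 ± 15.9 CPM of PEG10, ΔDNMT3A cells 369.5 ± 14.6, DNMT3A1 cells 434.5 ± 5.39 and the line labelled DNMT3A2 263 ± 8.16 CPM, with log2 differences of -0.80, 0.23 and -0.49 in the 3 comparisons. SGCE, which encodes a sarcoglycan, was 35.6 ± 0.926, 24.4 ± 2.07, 35.5 ± 0.501 and 14.3 ± 0.406 CPM in the same order, with -0.56, 0.54 and -0.78, all 6 called. The 50 nearest tested genes had a median of -0.45 in ΔDNMT3A against WT, and of 0.17 and 0.14 in the isoform lines. Further along the arm, MEST, a hydrolase gene of the paternal allele, fell in ΔDNMT3A by 0.44 and its neighbour COPG2 by 0.35, next to a median of -0.34 of the genes nearest MEST. MEST differed by -0.01 (adjusted p = 0.836) in DNMT3A1 and by 0.10 (adjusted p = 0.00132) in the line labelled DNMT3A2. On the short arm, GRB10, an adaptor that dampens insulin receptor signalling, was higher in each comparison (0.10, 0.27 and 0.49), and DDC, the aromatic amino acid decarboxylase gene beside it, was lower in ΔDNMT3A and in the line labelled DNMT3A2 (-0.30 and -0.39), with 0.07 (adjusted p = 0.123) in DNMT3A1.

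On chromosome 15, in the region of Prader-Willi and Angelman syndromes, the genes were higher in the line labelled DNMT3A2. SNRPN, a paternally expressed spliceosomal protein gene, was 18.95 ± 2.89 CPM in WT, 18.4 ± 1.02 in ΔDNMT3A and 19.2 ± 1.06 in DNMT3A1, and 27.9 ± 1.77 CPM in the line labelled DNMT3A2 (0.60 over ΔDNMT3A, SE 0.055, adjusted p = 1.39e-09). SNURF, read from the same transcript, rose from 37 to 83 counts (2.83 times per read, 1.90 to 4.28, fitted log2 1.5), but shares 69.3% of its exon bases with other genes, so that the counts for SNRPN and SNURF are uncertain. MKRN3, a ubiquitin ligase gene of the paternal allele that restrains puberty, fell to its lowest level in DNMT3A1 cells (8.57 ± 0.880 CPM), next to 12.9 ± 0.138 CPM for WT, 11.5 ± 1.12 CPM for ΔDNMT3A and 17.4 ± 0.829 CPM for the line labelled DNMT3A2. Its differences were -0.18 (adjusted p = 0.0278, and 0.0664 by DESeq2), -0.43 and 0.59. UBE3A, the ubiquitin ligase gene of that region listed as maternally expressed, differed by 0.01 and -0.04 in the first comparisons, neither called. It rose by 0.25 in the line labelled DNMT3A2. Around SNRPN, MKRN3 and UBE3A the nearest tested genes had medians of 0.49, 0.48 and 0.37 in that line. These were close to the members' 0.60, 0.59 and 0.25. Each median covered up to 50 genes, and fewer for SNRPN and MKRN3.

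The other members outside these clusters were measured in the same way. GNAS, which encodes the stimulatory G protein subunit, fell from 859 ± 17.9 to 559 ± 10.95 CPM in ΔDNMT3A (-0.63), and differed from ΔDNMT3A by -0.08 (adjusted p = 0.0342) in DNMT3A1 and 0.16 in the line labelled DNMT3A2. TP73, a relative of p53, stood at 24.7 ± 0.844 CPM for WT, 18.1 ± 0.296 CPM for ΔDNMT3A, 16.1 ± 0.596 CPM for DNMT3A1 and 11.01 ± 0.463 CPM for the libraries labelled DNMT3A2, and was lower in each comparison (-0.46, -0.18 and -0.73). NAA60, an acetyltransferase gene of the maternal allele, was called at -0.41 and 0.20 and not at -0.03 (adjusted p = 0.686). BLCAP, the host of NNAT, was called in the isoform lines at -0.21 and -0.36, and stood at 0.00 (adjusted p = 0.965) in ΔDNMT3A against WT. NDUFA4, a subunit gene of the respiratory chain, gave 0.08, -0.21 and -0.36, all called. PLAGL1, a zinc finger gene below 1 CPM, was not tested, and its 19 counts in ΔDNMT3A against 6 in WT make 2.95 times per read (1.13 to 9.03).

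Within a cluster, the log2 ratio of a gene listed as maternally expressed to one listed as paternally expressed was taken in the same library. This ratio does not depend on library size. CDKN1C over KCNQ1OT1 was -2.43 ± 0.16 in WT and -1.96 ± 0.20 in ΔDNMT3A (n = 4 each), a difference of 0.48 with an exact two-sided permutation p of 0.0286, the smallest that 4 against 4 allows, and 0.0857 adjusted over the 9 ratios tested. The ratio was lower in DNMT3A1 than in ΔDNMT3A by -2.37 (exact permutation p = 0.0571, the smallest for 3 against 4, adjusted 0.103). UBE3A over SNRPN was lower in the line labelled DNMT3A2 by -0.35 (exact permutation p = 0.0286, adjusted 0.0857). None of the 9 ratios passed 0.05 after adjustment. With so few libraries no ratio could have passed by itself, however large its shift, so the adjusted values cannot decide whether a ratio changed.

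Other genes known to be imprinted were counted from 2 lists. The share of all genes tested that was called was 62.2%, 60.7% and 67.9% in the 3 comparisons. Of 17 further paternally expressed genes found, 8 were tested in each comparison: 2 were higher and 2 lower in ΔDNMT3A against WT (median -0.01), 2 higher and 1 lower in DNMT3A1 (median 0.03), and 3 higher and 4 lower in the line labelled DNMT3A2 (median -0.05). Of 25 further maternally expressed genes, 12, 14 and 13 were tested, with 4 higher and 4 lower, 7 higher and 4 lower, and 5 higher and 7 lower in that order (medians 0.02, 0.28 and -0.12). GNAS-AS1, CMKLR2, SNHG14 and SLC22A3 are named from these lists after their values were seen. They are not the only listed genes with changes of this size. CPA4 differed by 2.23, -1.87 and -1.41 in the 3 comparisons, TSPAN32 by -1.98 in ΔDNMT3A against WT, and ANO1 by 1.27 in DNMT3A1 against ΔDNMT3A. GNAS-AS1 (chr20:58818919-58850903, minus strand), the paternally expressed antisense RNA of the GNAS cluster, held 1.11, 1.16, 1.02 and 0.772 CPM in WT, 1.22, 0.829, 0.913 and 0.997 CPM in ΔDNMT3A and 1.08, 0.996 and 0.845 CPM in DNMT3A1. In the line labelled DNMT3A2 a single read was counted in 1 library and none in the other 3, against 136 reads in ΔDNMT3A (ratio per read 108, 95% interval 19.1 to 4300, adjusted p = 4.28e-10).

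CMKLR2 (chr2:206175316-206218047, minus strand), a receptor gene beside ZDBF2, held 11 reads in the line labelled DNMT3A2 against 75 in ΔDNMT3A (5.41 times fewer per read, 2.86 to 11.3), and was higher than WT in ΔDNMT3A by 1.17 and higher than ΔDNMT3A in DNMT3A1 by 1.46. SNHG14, the long noncoding RNA that extends from SNRPN towards UBE3A, was 36.7, 37.1, 45.6 and 64.5 CPM on average in WT, ΔDNMT3A, DNMT3A1 and the line labelled DNMT3A2, called at 0.30 and 0.80 in the isoform lines. SLC22A3, a maternally expressed cation transporter gene near IGF2R, was 10.8, 6.57, 7.02 and 27.1 CPM in that order, lower in ΔDNMT3A than in WT by -0.72 and higher in the line labelled DNMT3A2 than in ΔDNMT3A by 2.02.

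In mouse colon epithelium, loss of Dnmt3a was addressed by ΔIEC against fl/fl. Of the 22 members tested, Cdkn1c was called, as higher, and 21 were not, where 0.691% of all 14626 genes tested were called, 88 higher (0.602%) and 13 lower (0.0889%). The median log2 fold change of the 22 was 0.07. The groups did not overlap for 3 of the 22 (Cdkn1c, Dlk1 and Peg3), as for 10.3% of all genes tested. H19 and Snurf held 3 counts or fewer in every library, and 20 of the 28 members reached a mean of 1 CPM in a group. The others below that level in both groups were Grb10, Igf2, L3mbtl1, Peg10, Sgce and Zdbf2, at 0.0603 to 0.734 CPM at most.

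Cdkn1c (chr7:143458339-143461050, minus strand, GRCm38) held 6.003, 6.36, 7.58 and 8.02 CPM in Dnmt3a fl/fl and 14.4, 12.5, 18.6 and 13.6 CPM in Dnmt3a ΔIEC. Each ΔIEC sample was above each control. The log2 fold change was 1.08 (SE 0.158, edgeR adjusted p = 0.0113), the adjusted p was 2.17e-07 by DESeq2, and it was 0.0503 by edgeR without fl/fl replicate 1 (log2 fold change 1.01). Its direction in ΔIEC was that of CDKN1C in ΔDNMT3A Caco-2 cells, 0.46. Cdkn1c shares 30.7% of its exon bases with Gm44732 on a table counted without strand, and Gm44732 had 0 counts. Phlda2, beside it, was 1.55 CPM in fl/fl and 1.68 CPM in ΔIEC (0.12, not called).

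In the Dlk1-Meg3 cluster, no gene passed the threshold. Dlk1, a paternally expressed gene for a Notch-like membrane protein, held 0.785, 1.26, 0.438 and 0.810 CPM in fl/fl and 1.29, 2.80, 2.47 and 2.07 CPM in ΔIEC (1.39, SE 0.334, adjusted p = 0.136, and 0.0134 by DESeq2). Meg3, the maternally expressed noncoding RNA, held 21.4, 40.2, 24.3 and 26.3 CPM in fl/fl and 29.0, 57.0, 46.8 and 43.04 CPM in ΔIEC (0.65, SE 0.227, adjusted p = 0.247). Replicate 2 was the highest of each group for both genes, and the groups overlapped for Meg3 and not for Dlk1. Rtl1, a retrotransposon-derived gene on the opposite strand, gave 0.50 (adjusted p = 0.572). The Meg3 to Dlk1 ratio differed by -0.75 (exact permutation p = 0.0286, adjusted 0.0857). Peg3, a paternally expressed zinc finger gene, held 8.13, 8.09, 6.92 and 7.57 CPM in fl/fl and 5.81, 5.21, 5.44 and 4.26 CPM in ΔIEC (-0.57, SE 0.143, adjusted p = 0.151, and 0.0194 by DESeq2), with every ΔIEC sample below every control. Dlk1, Meg3 and Rtl1 lie on chromosome 12 and Peg3 on chromosome 7.

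**Figure D4:**
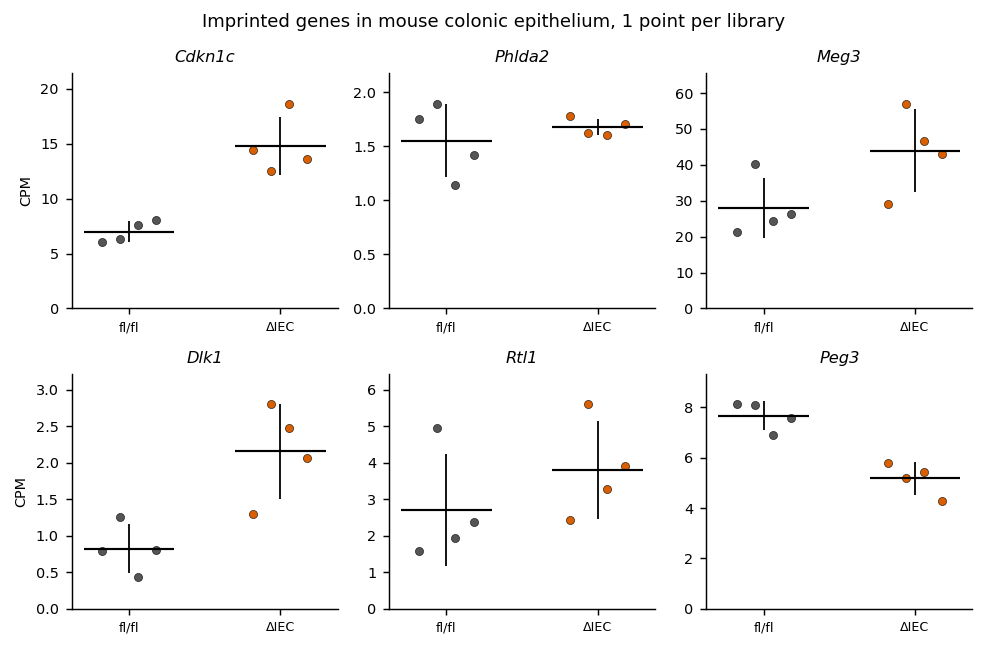
CPM of imprinted genes in each mouse library (1 point per library) with the group mean (horizontal line) and SD (vertical bar), for Dnmt3a fl/fl and Dnmt3a ΔIEC colonic epithelial cells. Cdkn1c runs from 6.003 to 8.02 CPM in fl/fl and from 12.5 to 18.6 CPM in ΔIEC samples.

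Markers of other cell types were measured beside these values. The summed level of 10 immune markers was 3.10 to 5.04 CPM in fl/fl and 5.50 to 7.79 CPM in ΔIEC, without overlap. Ptprc (CD45), the marker of that list at 1 CPM or more, was 1.85 and 4.08 CPM (1.13, adjusted p = 0.0642 by edgeR and 0.000864 by DESeq2). The other 2 markers tested, Cd8a (-0.17) and Ms4a1 (-0.21), were not called, and the macrophage marker Adgre1 was at 0 in ΔIEC. Their part in the result for Cdkn1c, Dlk1 and Peg3 was not tested. The sums of stromal (6.83 to 11.6 against 4.82 to 10.2 CPM), endothelial (6.61 to 10.6 against 5.32 to 9.77), neural (1.15 to 1.66 against 0.763 to 1.53) and enteroendocrine markers (123 to 498 against 273 to 324) overlapped between the groups. The 8 epithelial markers summed to 13000 to 15200 CPM in fl/fl and 13700 to 19300 CPM in ΔIEC. Of the further imprinted genes, 4 paternally and 12 maternally expressed were tested in mice, and 0 were called by edgeR or by DESeq2 (at an unadjusted edgeR p under 0.05, 0 and 1 of them).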

How the data were processed

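Gene expression was measured by stranded total RNA sequencing. The authors trimmed reads with Trim Galore 0.4.4, aligned them with STAR 2.5.2b to GRCh38 or GRCm38 and, per the file headers, counted them per gene with featureCounts 1.5.2 (human, by strand) or 1.6.4 (mouse, without strand), and the deposited values are raw counts. Reads over exons of more than 1 gene were not assigned, which lowers genes inside others. Human symbols came from RefSeq for 56948 of 58051 identifiers (98.1%), and MCTS2P was matched as MCTS2. The mouse genes were found by name, and INS, KCNQ1OT1, MEG8, DIO3, ZIM2, HYMAI, NDN, MAGEL2, MKRN3, MCTS2P, DIRAS3 and TP73 were not analysed here. DNMT3A1 replicate 3 was not analysed here.

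Members and lists were chosen with earlier results of these data known. Groups were compared as pairs with edgeR 4.0.16 (filterByExpr, TMM, quasi-likelihood F test, R 4.3.3) on all genes, Benjamini-Hochberg adjusted, with a call at an adjusted p under 0.05. CPM used TMM library sizes, and the SE is the log2 fold change over the square root of F. Every library's value is given for members called with a log2 fold change of at least 1 and 1 CPM in a group in ΔDNMT3A against WT or in either isoform line against ΔDNMT3A, and for mouse members called, with partners of their cluster beside them. Ratios of partner genes used 0.5 added to each count. On simulated counts in which 200 genes were changed by a log2 fold of 1, the fit recovered 89.5% for ΔDNMT3A against WT (16654 genes) and 70.5% for the mouse comparison (14626 genes), and 9.14% and 7.24% of its calls were false. In ΔDNMT3A against WT itself 62.2% of the genes tested were called, so the simulated rates need not hold there. Median depth was 30442451 counts per human library and 21312189 per mouse library. A count of 3, the floor, is 0.0712 to 0.136 CPM in human and 0.12 to 0.177 CPM in mouse libraries, and intervals cover counting error only, as reads carried no molecular identifiers. Alternatives were DESeq2 1.42.0, its size factors, no filter, all 4 Caco-2 groups in 1 fit, a replicate block, each lane alone, each replicate left out, and, chosen after seeing the data, the members without MCTS2 and without those sharing at least 10% of exon bases.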

Additional observations from a re-analysis of the deposited data

Results flagged for a closer look

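In 109 groups of 4 libraries, a library was marked where its gap to the nearest other was most of the group's range (Dixon's test at 95%, which chance gives in about 1 of 20 groups), and 4 were. COPG2 was 19.4 CPM in replicate 2 labelled DNMT3A2 against 24.3 to 24.5 CPM in the others. MCTS2 was 1.89 CPM in ΔDNMT3A replicate 3 against 2.19 to 2.25 CPM. NAA60 was 15.2 CPM in ΔDNMT3A replicate 4 against 18.0 to 18.2 CPM. TP73 was 26.0 CPM in WT replicate 3 against 24.2 to 24.4 CPM.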

How the results depend on the processing

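The number of members called was 19, 17 and 23 in ΔDNMT3A against WT, DNMT3A1 against ΔDNMT3A and the line labelled DNMT3A2 against ΔDNMT3A, and 20, 22 and 26 in DNMT3A1 against WT, the line labelled DNMT3A2 against WT and that line against DNMT3A1. With a log2 change of at least 1 added these became 1, 2, 5, 1, 7 and 8. With DESeq2 they were 17, 16, 23, 19, 24 and 25, and with the replicate number as a block (replicate block) 19, 18, 23, 19, 22 and 26. The numbers do not pair the samples: correlations of same-numbered samples ran from -0.33 to 0.233, 5 of 21 were over 0.1, and 6 of 21 samples correlated best with their own number. Leaving out each replicate gave 18 to 20, 16 to 18, 23 to 24, 18 to 20, 22 to 24 and 25 to 26. In mice, the 1 member called became 3 with DESeq2, 0 without members sharing exon bases (Cdkn1c among them), and 0 to 1 when each replicate was left out, with 0 without fl/fl replicate 1. Over all mouse genes, DESeq2 called 351 and edgeR 101. Of values that changed sign, none was called. They were KCNQ1OT1 (-0.0029) and BLCAP (-0.00018) in ΔDNMT3A against WT under the replicate block, NAP1L4 in the line labelled DNMT3A2 against WT with all 4 groups in 1 fit (0.01), and mouse Igf2r with DESeq2 size factors (-0.0017). When each replicate was left out, ΔDNMT3A against WT ran from -0.04 to 0.08 for KCNQ1OT1, -0.13 to 0.02 for SNRPN, -0.01 to 0.03 for UBE3A, -0.02 to 0.04 for BLCAP and -0.02 to 0.12 for the UBE3A to SNRPN ratio. DNMT3A1 against ΔDNMT3A ran from -0.01 to 0.06 for SLC22A18, -0.04 to 0.03 for MEST and -0.11 to 0.07 for MCTS2. Against WT, DNMT3A1 ran from -0.02 to 0.01 for SGCE and -0.05 to 0.10 for SNRPN, and the line labelled DNMT3A2 from -0.02 to 0.00062 for NAP1L4. In mice the ranges were -9.6e-05 to 0.23 for Phlda2, -0.02 to 0.18 for Slc22a18, -0.11 to 0.03 for Nap1l4, -0.07 to 0.28 for Mest, -0.22 to 0.02 for Ddc, -0.50 to 0.07 for Plagl1, -0.01 to 0.22 for Snrpn, -0.12 to 0.08 for Blcap, -0.05 to 0.17 for Naa60 and -0.02 to 0.03 for Igf2r. The cause of these changes was not tested. Depth limits H19, SNURF and PLAGL1, where a group held 5 to 83 counts in all, and the 13 silent members, which were not detectable at this depth.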

Other observations

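Genes that write, copy or protect imprints were followed beside the imprinted genes. Of 13 tested in Caco-2 cells, 4 were higher and 7 lower in ΔDNMT3A against WT (median log2 fold change -0.19), 8 higher and 3 lower in DNMT3A1 against ΔDNMT3A (median 0.14), and 9 higher and 1 lower in the line labelled DNMT3A2 against ΔDNMT3A (median 0.20), with medians over all genes of 0.00, 0.01 and 0.00. Of all genes tested, 31.2% were higher and 31.0% lower, 30.4% and 30.3%, and 33.8% and 34.1% in the same comparisons. DPPA3, whose product shields maternal marks in the zygote, was named after its values were seen: its mean was 0.98 CPM in WT, and 15.6, 19.3 and 25.1 CPM in ΔDNMT3A, DNMT3A1 and the libraries labelled DNMT3A2, a rise of 3.98 on the log2 scale in ΔDNMT3A over WT. DPPA3 has processed copies elsewhere in the genome, so its counts are uncertain. DNMT3B, the other de novo methyltransferase, differed by -0.48, 0.10 and 0.34 in the same comparisons, and UHRF1, which guides DNMT1 to newly copied DNA, by -0.34, -0.41 and -0.30. The fall of DNMT3B in ΔDNMT3A against WT was called (edgeR adjusted p = 1.78e-13), and DNMT1 was not (-0.03, adjusted p = 0.364). The paper reports that mRNA of the other DNMTs did not change in its RNA sequencing, which differs for DNMT3B. In mice, 0 of 11 such genes were called by edgeR or by DESeq2, with 2 at an unadjusted edgeR p under 0.05.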
